A study of Mus musculus with 8 samples.

Results

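Glycolysis turns glucose into pyruvate in the cytosol and yields ATP without oxygen. Glucose enters through facilitative transporters, hexokinase traps it as glucose 6-phosphate, phosphofructokinase commits it to the pathway, aldolase splits the 6-carbon sugar, phosphoglycerate kinase makes ATP, and lactate dehydrogenase turns pyruvate into lactate. Mouse embryonic stem cells in the naive state use both glycolysis and respiration, and many of these genes are known targets of the hypoxia-inducible factors (HIF) and of Myc. Described here are 10 genes of this pathway: the glucose transporter genes Slc2a1 and Slc2a3, and the enzyme genes Hk2, Gpi1, Pfkl, Aldoa, Aldoc, Pgk1, Eno1 and Ldha. They were chosen by name, with earlier results of these data known. Each was measured at the probe sets (sets of short array probes for 1 transcript) annotated to its symbol alone. Of the 10, 8 had such probe sets, 22 in all, among 18193 genes with a probe set of their own. Eno1 and Gpi1 had none in the annotation used and were not analysed here. Of the 22 probe sets, 21 were bright enough to be tested, covering all 8 measured genes, and the 1 left out was 1 of the 2 of Aldoc.

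The study set embryonic stem cells with a short hairpin RNA (shRNA) against Rif1, whose product is known from replication timing and DNA repair, against cells with a control shRNA. J1 cells (strain 129S4/SvJae) were taken 48 h after lipofection, with 2 Rif1 shRNA arrays and 2 control arrays. F1 cells (C57BL/6xC3H) were taken at passage 16, with 2 arrays of the stable Rif1 knockdown and 2 control arrays, although the labels give the stable knockdown line as the cell line of those controls too. All cells were grown on feeder cells, and the labels name neither the hairpin sequences nor the number of clones.

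The labels do not say that the arrays of a group came from separate cultures, so p-values measure the spread between these arrays, which may be technical. All 4 tested Rif1 probe sets fell in both lines. The brightest had 1662 and 1712 in J1 Rif1 shRNA arrays against 3255 and 3971 in J1 controls, and 996 and 1045 in F1 Rif1 shRNA arrays against 3432 and 3479 in F1 controls. The log2 fold changes of the 4 lay between -1.35 and -1.08 in J1 and between -2.02 and -1.57 in F1. Array brightness as deposited (2% trimmed mean) ran between 193 and 197 for J1 but between 301 and 309 for F1, so signals are given below after quantile normalization over the 8 arrays, in arbitrary units that can be compared between arrays but not between probe sets. The summed signal of 12 stem cell markers was 58109 and 59679 in J1 Rif1 shRNA arrays against 59314 and 59027 in J1 controls, and 57199 and 55488 in F1 Rif1 shRNA arrays against 57010 and 59267 in F1 controls. One bright gene, Dppa5a, makes up much of that sum. Singly, 0 of the 12 rose and 1 fell in J1 (Tfcp2l1, -0.61, limma adjusted p = 0.0348), and in F1 2 rose (Nanog and Tdgf1) and 6 fell (Esrrb, Utf1, Zfp42, Klf2, Tfcp2l1 and Sox2, between -0.54 and -0.26). The part of these changes in the results on glycolytic genes was not tested. In whole cultures, fewer cells of a type and less RNA per cell cannot be told apart.

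To show the DNA upstream of members whose levels are described below, the 250 bases before an annotated start are given for 3 of the 5 that hold the motif described next, a transporter and enzymes of the ATP-making and lactate steps, from RefSeq (GRCm38.p6). Capitals mark ACGTG on either strand, a form of the core of the hypoxia response element, which HIF binds. CACGTG, the E-box that Myc and its relatives bind, holds ACGTG on both strands and is counted within it.
Slc2a1, chr4:119108495-119108744, plus strand: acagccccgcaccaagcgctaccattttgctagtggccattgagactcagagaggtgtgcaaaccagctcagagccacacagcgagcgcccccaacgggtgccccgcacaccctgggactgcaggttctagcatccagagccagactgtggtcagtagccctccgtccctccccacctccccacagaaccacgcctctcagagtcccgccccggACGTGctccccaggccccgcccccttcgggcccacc
Pgk1, chrX:106186850-106187099, plus strand: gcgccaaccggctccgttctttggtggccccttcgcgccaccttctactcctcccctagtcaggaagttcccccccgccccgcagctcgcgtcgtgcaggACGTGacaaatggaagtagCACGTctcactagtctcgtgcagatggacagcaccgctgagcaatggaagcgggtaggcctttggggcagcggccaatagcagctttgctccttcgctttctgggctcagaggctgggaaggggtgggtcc
Ldha, chr7:46845554-46845803, plus strand: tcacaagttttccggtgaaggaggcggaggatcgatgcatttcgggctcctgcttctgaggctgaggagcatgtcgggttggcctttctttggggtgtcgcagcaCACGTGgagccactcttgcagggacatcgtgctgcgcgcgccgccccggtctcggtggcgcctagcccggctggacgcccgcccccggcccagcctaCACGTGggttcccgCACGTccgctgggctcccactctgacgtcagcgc

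Slc2a1 holds the motif 36 bases before its start. Pgk1 holds it at 150 and 131 bases, and the Ldha window shown holds 5 matches, 4 of them in 2 E-boxes. Ldha has a second annotated start, whose window (chr7:46846832-46847081) holds 0. The one shown lies inside the annotated gene, which begins at 46842274. Windows of Gpi1, Pfkl, Aldoc and Eno1 hold 0 matches to ACGTG. RefSeq upstream windows were found for 9 of the 10 members, 15 windows in all. ACGTG lay in 6 of the 15 (40%), for Slc2a1, Hk2, Aldoa, Pgk1 and Ldha, against 16.6% of 32851 windows of the same length. The windows of a gene can overlap, so the 15 are not independent, and 2 of the 6 are overlapping Aldoa windows that share 1 site. The other form of the core, GCGTG, lay in 8 of the 15 (53.3%) against 28.2% of all windows. A match is a string of letters and not a measured binding site.

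The first comparison asked how glycolytic genes stood 48 h after Rif1 shRNA entered J1 cells. Slc2a1, the main basal glucose transporter of most cells, and Pgk1, phosphoglycerate kinase, rose, each at 1 of its 3 probe sets. The other 6 genes did not pass the test, yet 19 of the 21 tested probe sets had a positive log2 fold change and 0 fell past the threshold. Nearly all members were highest on 1 array, the second of the Rif1 shRNA arrays.

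Slc2a1 at 1426600_at had 2127 and 2992 in J1 Rif1 shRNA arrays, against 1487 and 1624 in J1 controls. Both Rif1 shRNA arrays were above both controls, and the second stood well above the first. The log2 fold change was 0.69 (SE 0.13, a 1.62-fold rise, limma adjusted p = 0.0312). The other probe sets of Slc2a1 had 4605 and 6395 against 4085 and 4216 (1434773_a_at, 0.39, adjusted p = 0.176), and 3742 and 5135 against 3026 and 3262 (1426599_a_at, 0.48, adjusted p = 0.0896).

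Pgk1 at 1417864_at had 5715 and 6646 in J1 Rif1 shRNA arrays, against 4768 and 4861 in J1 controls. The groups did not overlap, and the Rif1 shRNA arrays lay farther apart than the controls. The log2 fold change was 0.36 (SE 0.07, 1.28-fold, limma adjusted p = 0.0399). Its other probe sets had 0.19 and 0.20 (1438640_x_at and 1439435_x_at, adjusted p = 0.359 and 0.363), both with the second Rif1 shRNA array highest. The suffix x marks probe sets whose probes can also match other transcripts.

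Both calls held without each J1 array in turn. They were lost with values as deposited (adjusted p = 0.0777 for Slc2a1 and 0.0703 for Pgk1) and without the intensity trend in the spread (0.346 and 0.463), and that of Pgk1 also with each array scaled to one median (0.192).

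Aldoc, an aldolase best known from brain, lay at the threshold. At 1451461_a_at it had 406 and 513 in J1 Rif1 shRNA arrays, against 291 and 278 in J1 controls. These groups did not overlap either. The log2 fold change was 0.65 (SE 0.13, 1.57-fold), with a limma adjusted p of 0.0504, and of 0.0172 when all 8 arrays shared one spread. The second Aldoc probe set, 1424714_at, was too dim to be tested, at 25.8 and 19.7 against 18.6 and 28.3.

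Aldoa, the aldolase of muscle and of most growing cells, had values from 0.13 to 0.31 at its 5 probe sets (adjusted p from 0.150 to 0.558). At the brightest, 1416921_x_at, it had 6233 and 7774 in J1 Rif1 shRNA arrays, against 5950 and 6226 in J1 controls. The first Rif1 shRNA array lay just above the higher control, and the second was far above it.

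Pfkl, the liver-type subunit of phosphofructokinase, had 318 and 403 in J1 Rif1 shRNA arrays, against 248 and 267 in J1 controls (1439148_a_at, 0.45, adjusted p = 0.204). Its 2 dimmer probe sets had 0.41 and 0.17 (1450269_a_at and 1453541_at, adjusted p = 0.332 and 0.779). All 3 probe sets had both Rif1 shRNA arrays above both controls.

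Ldha, the lactate dehydrogenase subunit that favours lactate, had 9270 and 10887 in J1 Rif1 shRNA arrays, against 8096 and 8948 in J1 controls (0.24, adjusted p = 0.194). Hk2, an inducible hexokinase bound to mitochondria, had 1087 and 1459 in J1 Rif1 shRNA arrays, against 973 and 1164 in J1 controls (0.24, adjusted p = 0.572). For Hk2 the first Rif1 shRNA array fell between the controls, so the groups overlapped.

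Slc2a3, a high-affinity glucose transporter, was the member without a shift in J1. At its brightest probe set, 1437052_s_at, it had 8265 and 8521 in J1 Rif1 shRNA arrays, against 7963 and 8521 in J1 controls (0.03, adjusted p = 0.913). The second bright one had 6730 and 7211 against 6773 and 7233 (1455898_x_at, -0.01, adjusted p = 0.984). The dimmer 1421924_at and 1427770_a_at had 0.16 and -0.06 (adjusted p = 0.853 and 0.930).

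**Figure D1:**
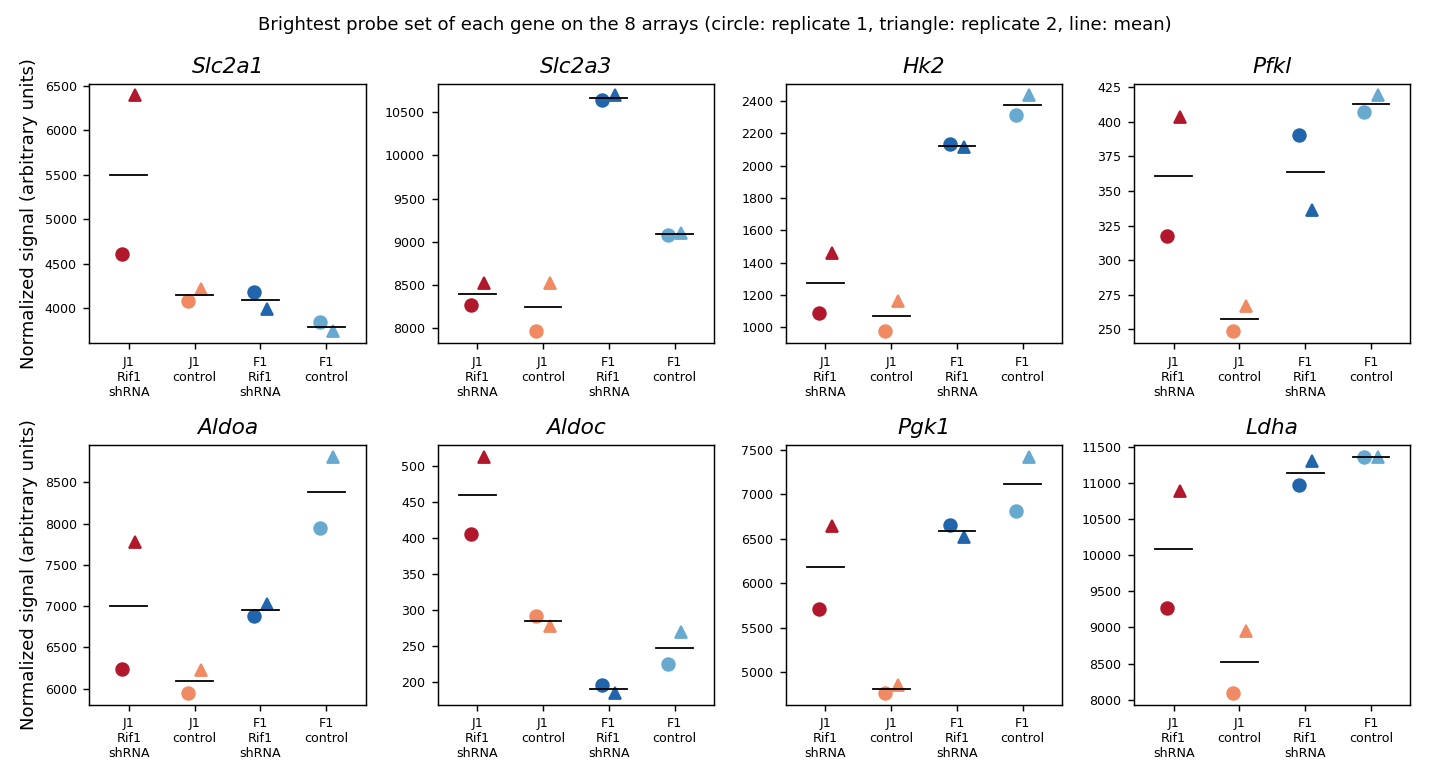
Normalized signal (arbitrary units) of the brightest probe set of each of the 8 measured genes on the 8 arrays. Circles are replicate 1, triangles replicate 2 and lines group means; axes do not start at 0 and differ between genes. In J1 the second Rif1 shRNA array (triangle) is the highest J1 array for every gene but Slc2a3. There it ties with a control after normalization and lies below it as deposited (7823 against 7923). In F1, Slc2a3 is higher and Aldoa lower in Rif1 shRNA arrays.

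As a count, 2 of the 21 tested member probe sets rose in J1 and 0 fell. Over all 31605 probe sets, 0.456% rose and 0.348% fell, so few of any kind passed in J1. At an unadjusted p under 0.05, 14 of the 21 were higher and 0 lower, while over all 31605 probe sets 1553 were higher and 1853 lower. The 21 come from 8 genes, so they are not independent. With each gene at its brightest probe set, 6 of the 8 were higher and 0 lower at that p. Of all 14714 genes, 855 were higher and 969 lower. Both Rif1 shRNA arrays lay above both controls for 15 of the 21 and below them for 0, while over all probe sets these shares were 18.8% and 20.9%. The median log2 fold change was 0.24 for the 21 and -0.001 for all probe sets.

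Single J1 arrays set much of this. For 20 of the 21 probe sets the second Rif1 shRNA array was above the first, by a median of 0.27 on the log2 scale and by up to 0.49. Over all probe sets, 46.0% were higher on that array, with a median gap of -0.02. Between the J1 controls, 19 of the 21 were higher on the second array, by a median of 0.08. At the brightest probe set of each gene, the median distance from the J1 control mean was 0.14 on the first and 0.46 on the second Rif1 shRNA array. The summed signal of the 8 genes was 35900 and 42599 in J1 Rif1 shRNA arrays, against 32375 and 34482 in J1 controls. Without the second Rif1 shRNA array the rise of Slc2a1 was 0.45 (adjusted p = 0.00406) and that of Pgk1 was 0.25 (adjusted p = 0.0218), and still 2 probe sets rose. Without the first, 15 rose. Without either control 1 or control 2 the counts were 3 and 4. In these fits the lone array of a group is assumed to vary like the pair in the other group.

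RNA quality also differed between the J1 groups. For the actin control probe sets, 3'-end over 5'-end signal came to 2.18 and 2.17 in J1 Rif1 shRNA arrays, against 2.71 and 2.61 in J1 controls. It did not separate the first Rif1 shRNA array from the second, and its part in the difference between the groups was not tested. The summed signal of 19 feeder fibroblast markers was 5736 and 6175 in J1 Rif1 shRNA arrays, against 6471 and 6297 in J1 controls. Vim makes up most of that sum. Of the 19, 8 had a positive and 11 a negative log2 fold change (median -0.04), 0 rose and 1 fell (Col5a2, -0.90). The part of feeder RNA in the J1 values was not tested.

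**Figure D2:**
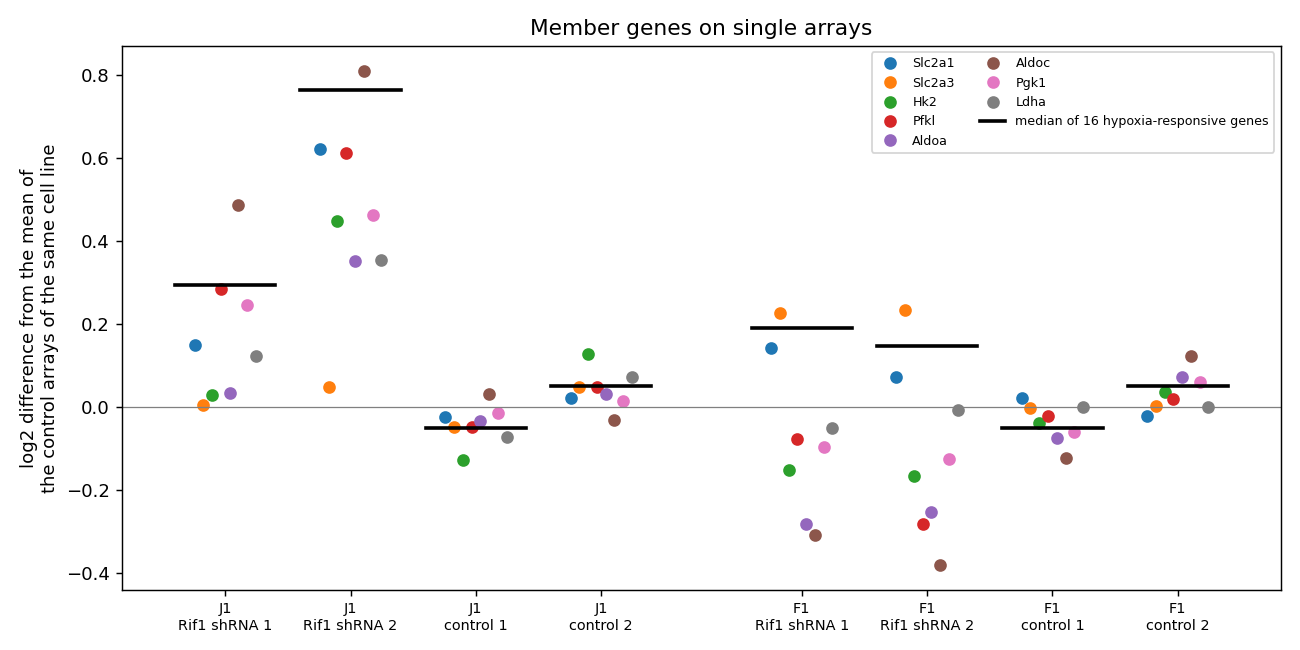
Distance on the log2 scale of each gene's brightest probe set from the mean of the control arrays of its cell line, on each of the 8 arrays. Points are the 8 measured genes and black lines the median of 16 hypoxia-responsive genes; on the second J1 Rif1 shRNA array 7 of the 8 genes lie above 0.35 and the black line is at 0.76, against 0.29 on the first.

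The second comparison asked how these genes stood in F1 cells kept under Rif1 knockdown to passage 16. Slc2a3 and Slc2a1 rose, each at 2 probe sets, while Aldoa, Aldoc, Hk2 and Pgk1 fell at 1 probe set or more. Pfkl and Ldha did not pass. All these changes were small, between a 1.20-fold rise and a fall to 0.788 of control.

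Slc2a3 at 1437052_s_at had 10644 and 10692 in F1 Rif1 shRNA arrays, against 9080 and 9101 in F1 controls. Each group was tight and the gap between them was many times the spread within them. The log2 fold change was 0.23 (SE 0.03, 1.17-fold, limma adjusted p = 0.00127), and the call held under all 16 alternative settings tried. At 1455898_x_at it had 7927 and 7952 against 6667 and 7116 (0.20, adjusted p = 0.00818). The dim probe sets 1421924_at and 1427770_a_at had -0.10 and 0.18 (adjusted p = 0.429 and 0.212).

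Slc2a1 at 1426600_at had 2914 and 2874 in F1 Rif1 shRNA arrays, against 2352 and 2473 in F1 controls (0.26, SE 0.04, limma adjusted p = 0.00398). The groups did not overlap at any of its 3 probe sets. The others had 0.19 (1426599_a_at, adjusted p = 0.0124) and 0.11 (1434773_a_at, adjusted p = 0.0887). With one spread for all 8 arrays neither call of Slc2a1 held (adjusted p = 0.189 and 0.306), and that at 1426599_a_at was lost without F1 Rif1 shRNA replicate 1 (0.114).

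Aldoa fell at 4 of its 5 probe sets. At 1433604_x_at it had 4922 and 5057 in F1 Rif1 shRNA arrays, against 5870 and 6326 in F1 controls (-0.29, SE 0.04, limma adjusted p = 0.00321). At 1434799_x_at it had 6108 on both F1 Rif1 shRNA arrays (7085 and 7060 as deposited), against 7156 and 7733 in F1 controls (-0.28, adjusted p = 0.00297). These 2 calls held under all 16 alternatives. The brightest, 1416921_x_at, had -0.27 (adjusted p = 0.00758), lost without the intensity trend (0.0509) and with one spread (0.0594). 1439375_x_at had -0.19 (adjusted p = 0.0296), lost without F1 Rif1 shRNA replicate 1 or 2 (0.0994 and 0.0848).

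The remaining probe set of Aldoa, 1447734_x_at, went its own way between cell lines. It had 260 and 230 in F1 Rif1 shRNA arrays and 276 and 243 in F1 controls (-0.08, adjusted p = 0.563), against 2275 and 3007 in J1 Rif1 shRNA arrays and 2194 and 2150 in J1 controls. The other 4 probe sets of Aldoa were higher in F1 controls than in J1 controls.

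Aldoc had 195 and 185 in F1 Rif1 shRNA arrays, against 224 and 269 in F1 controls (-0.34, SE 0.09, limma adjusted p = 0.0303). Hk2 had 2134 and 2114 in F1 Rif1 shRNA arrays, against 2312 and 2435 in F1 controls (-0.16, SE 0.04, adjusted p = 0.0323). Neither gene's groups overlapped, but both calls were lost without F1 control replicate 2 and without either F1 Rif1 shRNA replicate. Without that control the values were -0.22 for Aldoc and -0.12 for Hk2. Without F1 Rif1 shRNA replicate 1 or 2 they moved little, to -0.38 and -0.31 for Aldoc and -0.17 and -0.15 for Hk2. The SE grew in these fits with fewer arrays, to 0.12 for Aldoc and 0.065 for Hk2. The Aldoc call was also lost with values as deposited (adjusted p = 0.0665) and with each array scaled to one median (0.0552).

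Pgk1 fell at 1438640_x_at, with 5263 and 5257 in F1 Rif1 shRNA arrays against 5619 and 5931 in F1 controls (-0.13, SE 0.04, adjusted p = 0.0372). This call too was lost without F1 control replicate 2, where the value was -0.10. It was also lost without either F1 Rif1 shRNA replicate, though the value stayed at -0.13. 1439435_x_at had -0.11 (adjusted p = 0.0543), and 1417864_at, which rose in J1, had -0.11 (adjusted p = 0.116). That last value was -0.17 without F1 control replicate 1 (adjusted p = 0.0113).

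Pfkl had 391 and 336 in F1 Rif1 shRNA arrays, against 407 and 419 in F1 controls (1439148_a_at, -0.18, adjusted p = 0.136). Its dimmer probe sets had -0.13 and 0.03 (1450269_a_at and 1453541_at, adjusted p = 0.235 and 0.825). Ldha had 10970 and 11304 in F1 Rif1 shRNA arrays, against 11359 on both F1 controls (-0.03, SE 0.03, adjusted p = 0.526). As deposited, before normalization, the Ldha signals were 11445 and 11614 against 11691 and 11610, so the groups overlapped.

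**Figure D3:**
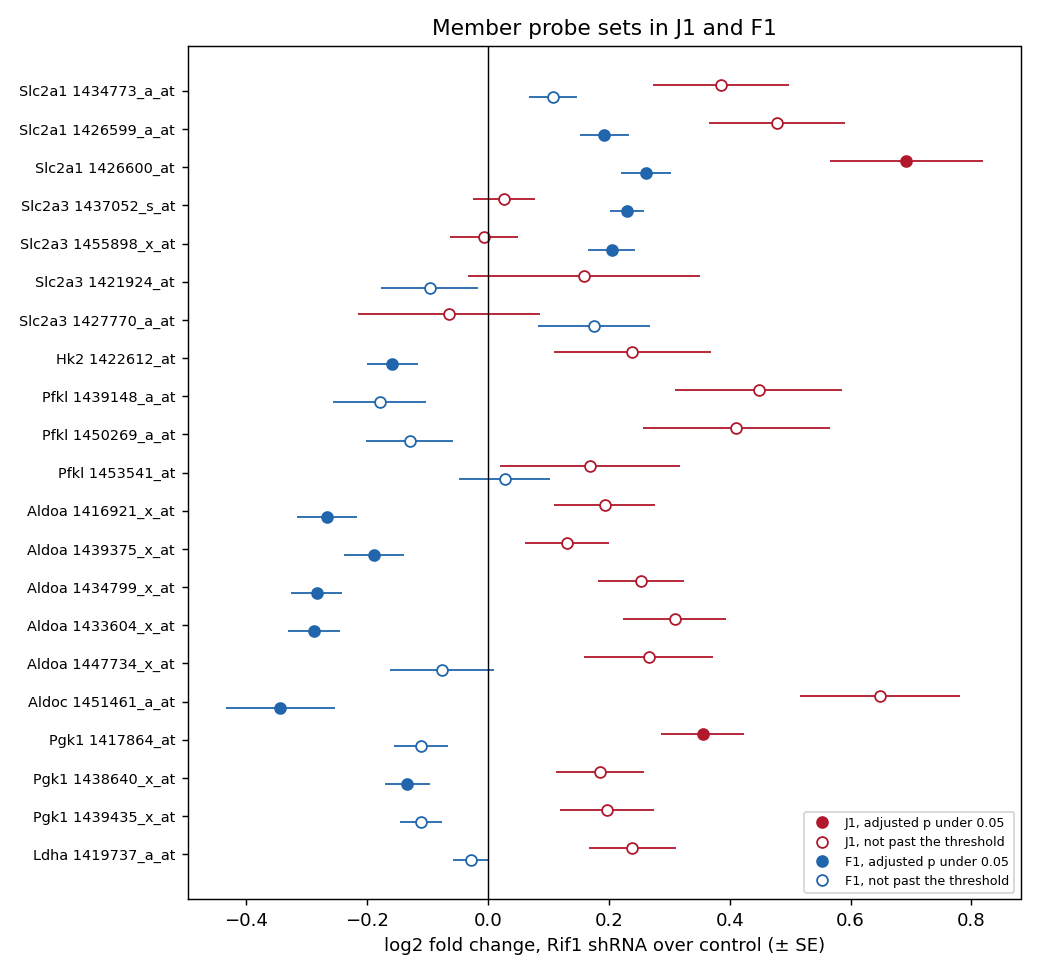
Log2 fold change of Rif1 shRNA over control for the 21 tested member probe sets, with SE bars, in J1 (red) and F1 (blue). Filled points passed limma's adjusted p of 0.05; in J1 nearly all points lie right of 0 with 2 filled, and in F1 the filled points of Slc2a1 and Slc2a3 lie right and those of Aldoa, Aldoc, Hk2 and Pgk1 left.

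As a count, 4 of the 21 rose and 7 fell in F1, against 13.1% of all probe sets risen and 12.7% fallen. Those risen came from 2 genes and those fallen from 4, so the probe sets are not independent. Both Rif1 shRNA arrays lay above both controls for 6 of the 21 and below them for 12, while over all probe sets these shares were 28.4% and 35.5%. The number risen was 3 or 4 with any 1 F1 array left out. The number fallen was 8 when F1 control replicate 1 was left out and 4 when control replicate 2 was. It was 3 when either Rif1 shRNA replicate was left out. With one spread for all arrays 2 rose (Slc2a3 at 1437052_s_at and 1455898_x_at) and 2 fell (Aldoa at 1434799_x_at and 1433604_x_at). Without the intensity trend 2 rose (Slc2a1 at 1426600_at and Slc2a3 at 1437052_s_at), and the same Aldoa probe sets were the 2 that fell.

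Feeder markers moved with the F1 groups. Of 19 measured, 18 rose and 0 fell, and their summed signal was 11269 and 10543 in F1 Rif1 shRNA arrays, against 5712 and 5646 in F1 controls. Examples were the collagen genes Col5a2 (1.64) and Col1a2 (1.52). The part of feeder RNA in the rise of Slc2a1 and Slc2a3 and in the fall of the enzymes was not tested. The same actin ratio came to 1.33 on both F1 Rif1 shRNA arrays, against 1.35 and 1.41 in F1 controls.

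The third comparison asked whether the F1 effect differed from the J1 effect, tested in one fit over all 8 arrays. The difference was negative, lower in F1, for 18 of the 21 probe sets. It passed for 6, at 1 probe set each of Aldoc, Pfkl and Pgk1 and at 3 of Aldoa, and 0 passed in the positive direction. Over all probe sets 3.35% passed as negative and 4.98% as positive.

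Aldoc had the largest difference of the 21, -0.99 (SE 0.17, limma adjusted p = 0.00489), and its call held under all 19 alternatives. The difference of Aldoa was -0.60 (SE 0.11, adjusted p = 0.00788) at 1433604_x_at, -0.54 (adjusted p = 0.00536) at 1434799_x_at and -0.46 (adjusted p = 0.0388) at 1416921_x_at. That of Pgk1 was -0.47 (1417864_at, adjusted p = 0.0112) and that of Pfkl -0.63 (1439148_a_at, adjusted p = 0.0377). The Pgk1 call was lost without F1 control replicate 2 (0.056) or F1 Rif1 shRNA replicate 2 (0.0505). Without the intensity trend Aldoc alone passed. The Pfkl call and the 1416921_x_at call of Aldoa were lost under 12 and 10 of the 19 alternatives. Without the first J1 Rif1 shRNA array 16 of the 21 probe sets passed as negative. Without the second, 5 passed as negative and 2 as positive, those of Slc2a3 at 1437052_s_at (0.23, adjusted p = 0.045) and 1455898_x_at (0.26, adjusted p = 0.0487). With all arrays Slc2a3 had 0.20 and 0.21 (adjusted p = 0.0579 and 0.104). The difference of Slc2a1 was -0.28 to -0.43 (adjusted p from 0.156 to 0.336).

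Across the 4 groups, the order of normalized levels at each gene's brightest probe set differed between genes. For some genes it also differed between their probe sets. Several of the orders and overlaps between J1 and F1 groups given next did not hold in the signals as deposited, before normalization. Hk2, Pfkl, Pgk1 and Ldha ran from F1 control, the highest, through F1 Rif1 shRNA and J1 Rif1 shRNA to J1 control. For Pfkl and Pgk1 the arrays of F1 Rif1 shRNA and J1 Rif1 shRNA overlapped, for Hk2 those of the J1 groups, and for Ldha no neighbours did after normalization. At 1438640_x_at the normalized Pgk1 means instead ran J1 Rif1 shRNA (6903), J1 control (6048), F1 control (5775), F1 Rif1 shRNA (5260). As deposited, that probe set had 6503 and 6757 in F1 controls and 6140 and 6168 in F1 Rif1 shRNA arrays. J1 Rif1 shRNA arrays had 5544 and 6727 and J1 controls 5101 and 5372, the order of means of the brightest Pgk1 probe set. At 1439435_x_at of Pgk1 and at the dimmer probe sets of Pfkl, J1 Rif1 shRNA had the highest mean after normalization, but not as deposited. After normalization Aldoa ran F1 control, J1 Rif1 shRNA, F1 Rif1 shRNA, J1 control, with the middle pair overlapping. As deposited, its F1 Rif1 shRNA arrays (7841 and 7977) lay above those of J1 Rif1 shRNA (5443 and 7008). After normalization Aldoc ran J1 Rif1 shRNA, J1 control, F1 control, F1 Rif1 shRNA, with no overlap. As deposited, its J1 controls (227 and 216) were instead the lowest. Its F1 controls had 269 and 338, F1 Rif1 shRNA arrays 244 and 228, and J1 Rif1 shRNA arrays 307 and 384. After normalization Slc2a1 ran J1 Rif1 shRNA, J1 control, F1 Rif1 shRNA, F1 control, with the J1 control and F1 Rif1 shRNA arrays overlapping. As deposited, its J1 controls (3321 and 3441) lay below F1 controls (4711 and 4588) and F1 Rif1 shRNA arrays (5186 and 4970). At 1426600_at the normalized Slc2a1 means ran F1 Rif1 shRNA (2894), J1 Rif1 shRNA (2559), F1 control (2413), J1 control (1556). As deposited, the F1 controls there (3052 and 3160) lay above the J1 Rif1 shRNA arrays (1629 and 2392). Slc2a3 was highest in F1 Rif1 shRNA, then F1 control, and its J1 groups overlapped. At 1455898_x_at the normalized F1 control mean of Slc2a3 was the lowest (6892, against 6971 in J1 Rif1 shRNA and 7003 in J1 control). As deposited, the F1 controls there (7628 and 7999) lay above J1 Rif1 shRNA arrays (5899 and 6386) and J1 controls (5959 and 6407). Between controls after normalization, the F1 minus J1 difference at the brightest probe sets was widest for Hk2, at 1.14 on the log2 scale. It was lowest for Aldoc, at -0.20. Between J1 and F1, strain, line, array brightness, RNA quality (the actin ratio above) and the form and length of the knockdown (48 h after lipofection, or stable to passage 16) all differ. They cannot be told apart here or in the F1 minus J1 differences.

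Of the genes outside the list, those whose centred log2 profile over the 8 arrays lay nearest to the mean profile of the 8 members were Sod3, Klre1, Oscp1, 4931429L15Rik and Tpgs1. Their root mean square differences from it were 0.04, 0.07, 0.07, 0.07 and 0.08. Of the members, Ldha, Pgk1 and Aldoa lay at 0.07, 0.08 and 0.08, and Aldoc, the farthest, at 0.46. None of the 5 passed the test in J1 or F1 (adjusted p from 0.453 to 0.929), and Sod3 was dim, with signals from 40.3 to 58.0.

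The rest of the pathway was described with lists, each gene at its brightest tested probe set. On this scale 1 of the 8 members rose and 0 fell in J1, and 1 rose and 3 fell in F1. Of all 14714 genes, 0.584% rose and 0.449% fell in J1, and 16.0% rose and 14.5% fell in F1.

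In J1 most other glycolysis genes had positive values, and in F1 most had negative ones. Of 21 measured, 1 rose and 0 fell in J1, with a positive value for 17 and a median log2 fold change of 0.15, against 0.006 for all genes. The one was Pfkp, the platelet-type phosphofructokinase subunit, with 941 and 1170 in J1 Rif1 shRNA arrays against 662 and 728 in J1 controls (0.58, limma adjusted p = 0.0392). Tpi1, triose phosphate isomerase, had 0.49 (adjusted p = 0.111) and Pgm1, a phosphoglucomutase, had 0.54 (adjusted p = 0.181). On the 2 J1 Rif1 shRNA arrays the summed signal was 15673 and 18526, against 15351 and 15595 in J1 controls, so the second was again the highest.

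In F1, 1 of these 21 rose and 6 fell, with a median of -0.09 against -0.02 for all genes. Eno3, the muscle enolase, fell most, with 203 and 209 in F1 Rif1 shRNA arrays against 455 and 443 in F1 controls (-1.06, adjusted p = 4.38e-05). Pgam2, the muscle phosphoglycerate mutase, had -0.64 (adjusted p = 0.00259), and Tpi1 had -0.34 (adjusted p = 0.00156). The transporter gene Slc2a8 had -0.45, Pfkm -0.34 and Pgm1 -0.25, each a fall past the threshold. Pfkfb3, whose product raises the main activator of phosphofructokinase, rose (0.44, adjusted p = 0.0146).

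Among 18 genes of pyruvate and lactate handling, J1 had 1 risen and 0 fallen (median 0.09), and F1 had 3 risen and 2 fallen (median -0.07). Mpc1, a subunit of the mitochondrial pyruvate carrier, rose in both. It had 966 and 818 in J1 Rif1 shRNA arrays against 572 and 581 in J1 controls (0.61, adjusted p = 0.0229), and 395 and 392 in F1 Rif1 shRNA arrays against 296 and 289 in F1 controls (0.41, adjusted p = 0.00221). In J1 its second Rif1 shRNA array was lower than the first, unlike the members. Slc16a3, a lactate exporter, had 629 and 1237 in J1 Rif1 shRNA arrays against 448 and 496 in J1 controls (0.88, adjusted p = 0.114). Ldhb, the other main lactate dehydrogenase subunit, had -0.23 in J1 and -0.18 in F1 (adjusted p = 0.227 and 0.220). In F1, Pdk4 rose (0.79, adjusted p = 0.00138) and Pdk1 fell (-0.50, adjusted p = 0.00883), both kinases that switch off pyruvate dehydrogenase. Bsg, a partner of lactate transporters, rose (0.29) and Pdha1, a subunit of pyruvate dehydrogenase, fell (-0.15).

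The pentose phosphate branch, which makes NADPH and ribose from glucose 6-phosphate, had 0 of 7 genes risen or fallen in J1. At an unadjusted p under 0.05, 0 of the 7 passed there as well, against 855 higher and 969 lower of all 14714 genes. In F1, Pgd and Rpia rose (0.21 and 0.37) while Pgls, Rpe and Tkt fell (-0.19, -0.25 and -0.25). Taldo1 and H6pd had 0.13 and 0.09 in J1 and -0.03 and -0.05 in F1.

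**Figure D4:**
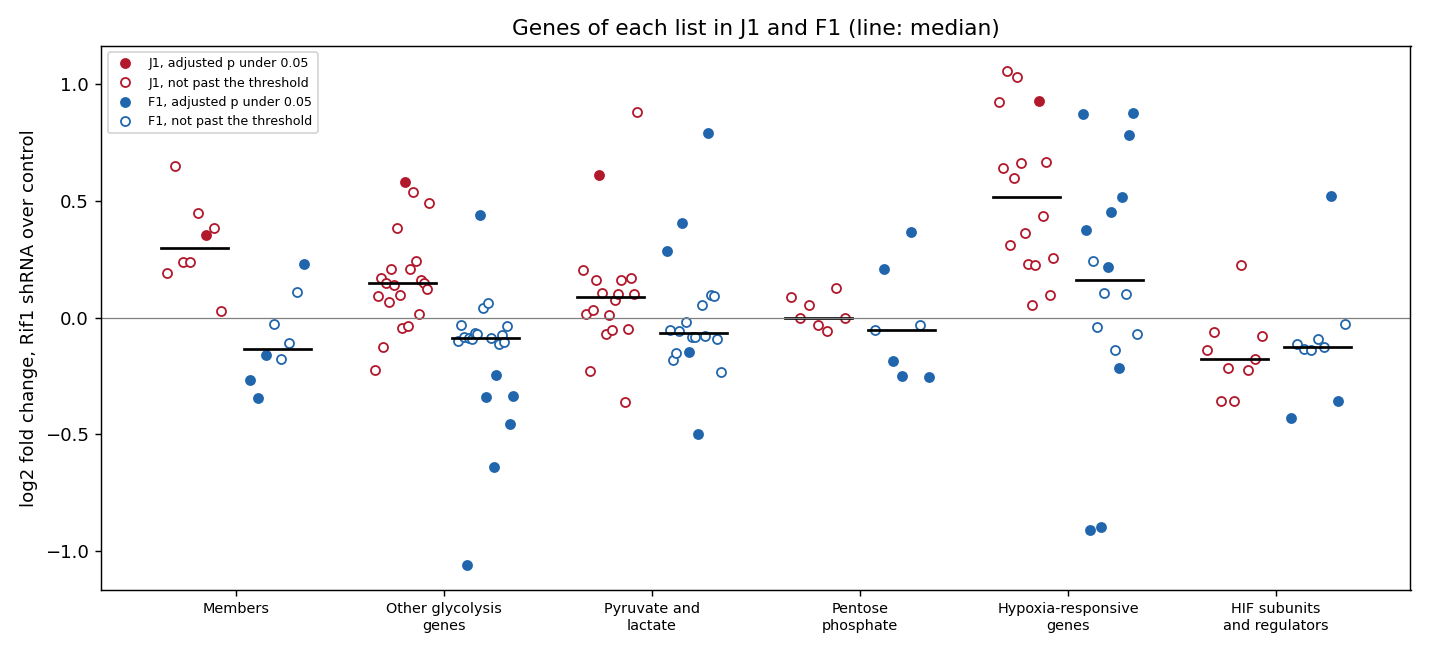
Log2 fold change of Rif1 shRNA over control for each gene of 6 lists at its brightest tested probe set, in J1 (red) and F1 (blue). The list of HIF subunits and regulators also holds Myc and Mycn. Filled points passed limma's adjusted p of 0.05 and lines are medians; in J1 all 16 hypoxia-responsive genes lie above 0 with a median of 0.52, and in F1 the list splits.

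HIF-responsive genes outside glycolysis were also highest, as a list, on the second J1 Rif1 shRNA array. Of 16 measured, 1 rose and 0 fell in J1, all 16 had a positive value, and the median was 0.52. At an unadjusted p under 0.05, 11 were higher. Over all 14714 genes, 7554 had a positive value and 855 were higher at that p. The list's median distance from the J1 control mean was 0.29 on the first and 0.76 on the second Rif1 shRNA array. Ndrg1, a stress-responsive gene, was the one that rose, with 345 and 546 in J1 Rif1 shRNA arrays against 224 and 215 in J1 controls (0.93, adjusted p = 0.0376). Ero1a, an oxidase of the endoplasmic reticulum, and Higd1a, a mitochondrial protein gene, had 0.66 and 0.36 (adjusted p = 0.0594 and 0.0663).

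In F1 the same list split, with 7 risen and 3 fallen. Feeder markers rose in F1 as well, and the part of feeder RNA in this list was not tested. Adm, the peptide adrenomedullin, had 91.7 and 89.4 in F1 Rif1 shRNA arrays against 41.2 and 41.5 in F1 controls (0.87, adjusted p = 0.000293). P4ha2, a collagen prolyl hydroxylase, rose (0.78, adjusted p = 0.000176). Egln3, a HIF prolyl hydroxylase, fell, with 165 and 173 in F1 Rif1 shRNA arrays against 310 and 352 in F1 controls (-0.90, adjusted p = 0.000281), as did Bnip3, a mitophagy gene (-0.91), and Mxi1, a Myc antagonist (-0.22). In J1, Egln3 and Bnip3 had 1.03 and 1.06 (adjusted p = 0.125 and 0.118).

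A list of 9 genes held HIF subunits and regulators and also the Myc family genes Myc and Mycn. Of these 9, 0 rose and 0 fell in J1. At an unadjusted p under 0.05 limma gave 0 higher and 3 lower (Hif1a, Hif1an and Mycn), against 855 and 969 of all 14714 genes. Hif1a, the oxygen-sensitive subunit, had 1954 and 1955 in J1 Rif1 shRNA arrays against 2203 and 2350 in J1 controls (-0.22, adjusted p = 0.233). Hif1an, a HIF-inhibiting hydroxylase, had -0.36 in J1 (adjusted p = 0.241). In F1, Myc rose, with 359 and 345 in F1 Rif1 shRNA arrays against 264 and 218 in F1 controls (0.52, adjusted p = 0.00565). Mycn fell there (-0.36, adjusted p = 0.00108), and so did Arnt, the constant partner of HIF (-0.43, adjusted p = 0.00743).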

How the data were processed

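Total RNA was labelled with biotin and hybridised to Affymetrix Mouse Genome 430 2.0 arrays, per the labels. The authors deposited 1 linear intensity per probe set and array, made with MAS5 per the submitters' processing notes, which name no version. From 45101 probe sets the 64 control probe sets were left out, and log2(signal + 18), 18 being the 10th percentile, was quantile normalized over the 8 arrays. Probe sets above the 40th percentile on at least 2 arrays were kept, 31605 in all. Fold changes are on this log2 scale, which shrinks those of dim genes; printed signals are it turned back, less 18.

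Limma 3.58.1 in R 4.3.3 (lmFit, eBayes with an intensity trend) was fitted to the 4 arrays of each cell line separately, because the median residual SD was 0.115 in J1 and 0.0657 in F1; the difference of effects used all 8. The threshold was an adjusted p under 0.05 (Benjamini-Hochberg over all 31605, two-sided), and "rose" or "fell" is used only then. The code was tested on simulated data. Figures used matplotlib 3.10.9 in Python 3.11.15.

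Symbols were those of GEO's platform annotation, which gave 34945 of 45037 probe sets 1 symbol, 932 several and 9160 none. Members and lists were chosen with earlier results of these data known. Named are all member and Rif1 probe sets, from each list the 3 genes with the smallest p in J1 and in F1, and the 5 nearest profiles. Pfkm, Slc2a8, Pfkfb3, Bsg, Pdha1, Rpia, Bnip3, Mxi1, Dppa5a, Nanog, Utf1, Zfp42 and Klf2 were chosen after their values were seen; some marker genes the rule names are given only as counts and sums. The number of arrays limits precision. Replicate arrays correlated at 0.991 to 0.997. The offset, filter, scaling, spread, threshold and block were varied, and each array was left out in turn.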

Additional observations from a re-analysis of the deposited data

Results flagged for a closer look

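In 6 cases the F1 effect of Rif1 shRNA differed from the J1 effect in the fit over all 8 arrays, each time lower in F1. The F1 minus J1 difference on the log2 scale was -0.99 for Aldoc (1451461_a_at), -0.63 for Pfkl (1439148_a_at), and -0.47 for Pgk1 (1417864_at). For Aldoa it was -0.60 (1433604_x_at), -0.54 (1434799_x_at) and -0.46 (1416921_x_at). For Aldoa and Aldoc the F1 change alone passed as a fall; for Pfkl neither single change passed, and for Pgk1 at this probe set the J1 rise alone did.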

How the results depend on the processing

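Of 21 member probe sets tested, 2 rose in J1, 4 rose and 7 fell in F1, and the difference passed as negative for 6 and as positive for 0. With values as deposited 0 rose in J1. Without the intensity trend 0 rose in J1, 2 rose and 2 fell in F1, and 1 difference was negative. With one spread for all 8 arrays 4 rose in J1, and 2 rose and 2 fell in F1. At an adjusted p under 0.01, 0 rose in J1, 3 fell in F1 and 3 differences were negative; under 0.10, 4 rose in J1, 10 differences were negative and 1 was positive. Leaving out each array in turn gave 2 to 15 risen in J1, 3 to 8 fallen in F1, and 3 to 16 negative and 0 to 2 positive differences.

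The replicate numbers share only a number: same-numbered deviations correlated at -0.34 in J1 and 0.19 in F1. With a replicate block 12 rose in J1, 5 rose and 8 fell in F1, and 8 differences were negative. With the J1 numbers crossed in the block, an alternative chosen after seeing the data, 9 rose in J1.

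Over all probe sets in J1, 144 rose and 110 fell, against 456 and 549 with one spread, 23 and 2 without the intensity trend, and 93 and 53 with values as deposited; the cause was not tested. Of the called member probe sets, 2 of 2 in J1, 8 of 11 in F1 and 5 of 6 for the difference lost their call under at least 1 setting. Of those not called, 13 of 19, 3 of 10 and 12 of 15 passed under at least 1, and 0 called results changed sign.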
